A study of Homo sapiens with 8 samples.

Results

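CRYAB (alpha B-crystallin), its small heat shock protein relatives HSPB1, HSPB6, HSPB8 and HSPB11, and their co-chaperone BAG3 are described here as 6 of the 25435 genes counted in HGC27 cells that carried mutant p53 or GFP. HGC27 is a human gastric cancer cell line, and the labels call the cells of every group here ones without p53. The cells overexpressed p53 R175H, p53 R248Q, p53 R273H or, as the control, GFP, with 2 libraries in each of the 4 groups and no wild-type p53 among them. The 6 genes were taken as the small heat shock protein genes of interest and BAG3, and CRYAB was chosen by its measured counts, which were lower in each mutant than in GFP. That contrast is therefore given for CRYAB as a description with no test, whereas differences of CRYAB between mutants, and all differences of the other 5 genes, were tested. All 6 genes passed the filter on low counts, as did 13213 genes in all.

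Small heat shock proteins hold partly unfolded proteins in large assemblies until ATP-driven chaperones of the HSP70 family refold them or hand them on for degradation. BAG3 binds HSP70 through its BAG domain and small heat shock proteins through other motifs, and so joins both systems in chaperone-assisted selective autophagy. Many of these genes are targets of heat shock factor 1 (HSF1), which binds inverted repeats of the bases GAA in promoters, and CRYAB is best known for its abundance in lens and muscle. R175H disturbs the fold of the p53 DNA-binding domain, while R248Q and R273H replace residues that contact DNA.

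The promoters of 3 of the family members held a pair of inverted GAA units, and they are shown beside that of HSPA8, the constitutive HSP70 protein, because the HSF1 target list described further on contains HSPA8. The sequences are RefSeq promoter windows on build GRCh38.p14, printed 5′ to 3′ on the strand of the gene. Capitals mark matches to GAANNTTC or TTCNNGAA, both of which read the same on either strand, and 20 bases are shown on each side. The stretches lie at chr7:76302471-76302518 (plus strand) for HSPB1, chr19:35757198-35757259 (minus strand) for HSPB6, chr12:119178823-119178870 (plus strand) for HSPB8 and chr11:123062159-123062211 (minus strand) for HSPA8.
HSPB1: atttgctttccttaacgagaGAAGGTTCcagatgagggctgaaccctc
HSPB6: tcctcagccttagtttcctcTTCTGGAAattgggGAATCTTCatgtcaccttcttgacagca
HSPB8: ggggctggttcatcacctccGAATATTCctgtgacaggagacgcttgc
HSPA8: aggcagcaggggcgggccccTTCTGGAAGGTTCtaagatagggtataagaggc
Relative to the annotated start, the match in HSPB1 began at base -182, those in HSPB6 at -210 and -196, and the one shown in HSPB8 at -88. HSPA8 held 3 units in a row in the stretch shown. A match is a run of letters and does not say that a factor binds there.

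Of the 6 genes, 5 had an entry among the promoter windows (HSPB11 under its RefSeq name IFT25), and CRYAB is named only. A 2-unit motif was in 3 of these 5, and a 3-unit motif, in which both motifs overlap by 1 unit, in 0 of them. The windows of HSPB11 and BAG3 held none of these letters. Over all 35116 windows of 300 bases, GAANNTTC was found in 6.77%, TTCNNGAA in 7.74%, either in 13.5%, and a 3-unit motif in 0.49%. Among 22 HSF1 target chaperones, 20 had an entry, 13 held a 2-unit motif and 7 a 3-unit motif. A gene was counted if any of its windows matched, and some genes had several windows. The shares over all windows are of single windows, so they are not like for like with these counts of genes.

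Total counts per library were between 6800463 and 11788035, and 3 counts, taken as the floor of detection, equalled 0.256 to 0.443 CPM (read counts scaled to a common library total). The pair of GFP libraries was the most dissimilar one, with a chi-square per degree of freedom of 5.72 over genes, against 1.21 to 1.60 for the mutants. HGC27 libraries carried little epithelial RNA: only KRT8 of 7 epithelial markers averaged at least 1 CPM, and 4 of the 6 gastric markers that were counted had no read in any library. Whether replicate libraries came from separate cultures is not stated in the sources used here, so p-values measure the spread between these libraries, which may be technical.

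CRYAB was lower in all 6 mutant libraries than in either GFP library, and lowest in R175H. CRYAB had 43 and 62 counts in the R175H libraries, 131 and 145 in R248Q, 104 and 122 in R273H, and 152 and 150 in GFP. Scaled for library size and composition (the trimmed mean of M values, TMM), this was 6.34 and 6.95 CPM in R175H, 11.2 and 12.4 CPM in R248Q, 9.25 and 10.4 CPM in R273H, and 15.6 and 16.6 CPM in GFP. No group overlapped another, and the order of the group levels was R175H, R273H, R248Q and GFP from low to high.

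CRYAB averaged 6.65 ± 0.43 CPM in R175H, 11.8 ± 0.89 CPM in R248Q, 9.83 ± 0.83 CPM in R273H and 16.1 ± 0.71 CPM in GFP (SD, n = 2 each). The fitted level in R175H was 0.415 times that in GFP, a log2 fold change of -1.27 ± 0.15 (SE). R248Q stood at 0.732 times GFP (-0.45 ± 0.13) and R273H at 0.611 times GFP (-0.71 ± 0.13). Since these differences from GFP chose the gene, they carry no p, and nothing is read from the 11.0% of all tested genes called in R175H, the 6.32% in R248Q and the 1.01% in R273H. GFP replicate 1 held relatively more RNA from short transcripts, and correcting for transcript length moved the R248Q value to -0.32. Without any 1 library the values stayed between -1.34 and -1.21 for R175H, -0.53 and -0.37 for R248Q, and -0.80 and -0.63 for R273H.

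**Figure D1:**
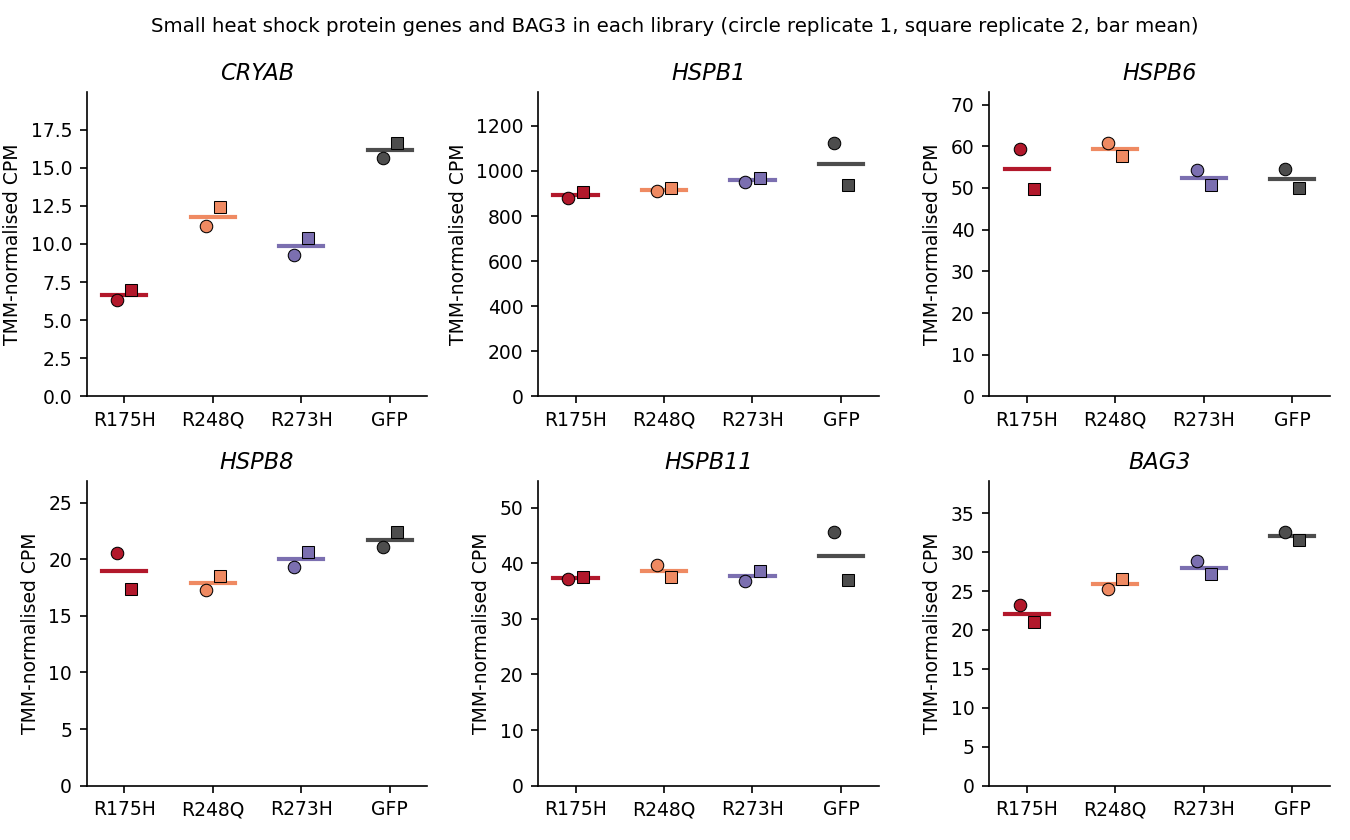
TMM-scaled CPM of CRYAB, HSPB1, HSPB6, HSPB8, HSPB11 and BAG3 (1 panel each) in each library, with R175H, R248Q and R273H left of GFP; points are libraries and lines are means of 2. CRYAB sat at 6.34 and 6.95 CPM in R175H and at 15.6 and 16.6 CPM in GFP with the other mutants between, and BAG3 lay below both GFP libraries in all 6 mutant libraries, whereas HSPB6 overlapped GFP in R175H and R273H.

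Differences of CRYAB among the mutants were tested, because the choice of the gene rested on its fall from GFP. The same mutant libraries showed that fall, so these tests are not independent of the choice. CRYAB was 1.76-fold higher in R248Q than in R175H, a log2 difference of 0.82 ± 0.16 (SE; 95% interval 0.48 to 1.15) with an adjusted p of 0.0046. Each adjusted p here is that of the quasi-likelihood F test in edgeR, adjusted by Benjamini and Hochberg's method over all 13213 genes, and a gene is called below 0.05. R273H stood 0.56 ± 0.16 above R175H on the log2 scale (interval 0.21 to 0.90), which was not called at an adjusted p of 0.076. R273H and R248Q differed by -0.26 ± 0.13 (interval -0.54 to 0.02, adjusted p 0.66).

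CRYAB was thus the 1 member of 6 called between R248Q and R175H, where 7.17% of all genes were called in either direction, 3.22% higher and 3.95% lower. Between R273H and R175H 0 of 6 were called, against 3.63% of all genes (1.41% higher and 2.22% lower). Before adjustment 2 of 6 (CRYAB and BAG3) were below 0.05 in that pair. The share of all genes before adjustment is not given for that pair, so nothing is read from this count. Between R273H and R248Q 0 of 6 were called, against 0.151% of all genes (0.00757% higher and 0.144% lower), and 0 were below 0.05 before adjustment. DESeq2 and limma-voom gave the same counts of members for all 3 pairs. The R248Q and R175H call was lost without R175H replicate 1 (log2 difference 0.76, adjusted p 0.059), without R175H replicate 2 (0.89, 0.058) and without R248Q replicate 2 (0.75, 0.067). The R273H and R175H difference of CRYAB was called without either GFP library, at an adjusted p of 0.022 each time, and 3 of 6 members were then called higher in R273H. Those fits called 780 of 13551 genes higher without GFP replicate 1 and 778 of 13534 without GFP replicate 2, against 186 of 13213 with all libraries.

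BAG3, the co-chaperone that ties small heat shock proteins to HSP70, fell in R175H. It had 23.2 and 21.0 CPM in R175H, 25.3 and 26.6 CPM in R248Q, 28.8 and 27.2 CPM in R273H, and 32.6 and 31.6 CPM in GFP. The 6 mutant libraries all lay below both GFP libraries, and R175H lay below the other mutants. In R175H BAG3 was at 0.684 times its GFP level, a log2 fold change of -0.55 ± 0.10 (SE) with an adjusted p of 0.0023. The changes of -0.31 ± 0.09 in R248Q (adjusted p 0.056) and -0.20 ± 0.09 in R273H (adjusted p 0.38) were not called.

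BAG3 also fell in the mean of the 3 mutants against GFP, by a log2 fold change of -0.35 ± 0.08 (adjusted p 0.010), and was lower in 6 of 6 mutant libraries. Without R175H replicate 2 the R175H call was lost (log2 fold change -0.47, adjusted p 0.060), and without GFP replicate 1 so was that of the mean (-0.33, 0.051). Leaving out GFP replicate 2 instead made the R248Q change a call (-0.33, adjusted p 0.020). Between mutants, BAG3 stood 0.35 ± 0.10 higher in R273H than in R175H on the log2 scale (interval 0.14 to 0.56, adjusted p 0.067). That difference was called without either GFP library (adjusted p 0.013 each time). R248Q stood 0.24 above R175H (interval 0.03 to 0.45, adjusted p 0.17), and R273H 0.11 above R248Q (interval -0.08 to 0.30, adjusted p 0.79).

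HSPB1 (HSP27), the stress-regulated member that p38-pathway kinases phosphorylate, was by far the most abundant of the family, and no difference of it from GFP was called. It had 880.4 and 907 CPM in R175H, 909 and 923 CPM in R248Q, 952 and 968 CPM in R273H, and 1125 and 936 CPM in GFP. The GFP libraries stood 0.26 apart on the log2 scale, which is more than any mutant's mean stood from that of GFP, and R273H lay within them. Log2 fold changes were -0.21 ± 0.07 in R175H (adjusted p 0.062), -0.17 ± 0.07 in R248Q (0.15) and -0.10 ± 0.07 in R273H (0.56). At the HSPB1 transcript length of 909 bases, the fitted length trend was 0.16 log2 above the gene's mean in GFP replicate 1 and -0.03 in GFP replicate 2. HSPB1 was called lower in R175H in 5 of 18 alternatives, among them the length correction (log2 fold change -0.13, adjusted p 0.011) and leaving out GFP replicate 2 (-0.33, 4.7e-10), whereas without GFP replicate 1 the value was -0.07 (0.32). With 1 GFP library left out, the other is assumed to vary like the mutant libraries, which were closer to each other than the GFP pair, so adjusted p-values of such fits, 4.7e-10 included, may be too small.

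HSPB8 (HSP22), the family member that forms a complex with BAG3, was lower in every mutant library than in both GFP libraries, but by amounts that were not called. HSPB8 had 20.5 and 17.4 CPM in R175H, 17.3 and 18.5 CPM in R248Q, 19.3 and 20.7 CPM in R273H, and 21.1 and 22.4 CPM in GFP. Its log2 fold changes were -0.21 ± 0.12 in R175H (adjusted p 0.28), -0.28 ± 0.11 in R248Q (0.15) and -0.12 ± 0.11 in R273H (0.69). Per kilobase of transcript, the ratio of HSPB8 to BAG3 was 1.06 and 0.990 in R175H, 0.817 and 0.832 in R248Q, 0.800 and 0.906 in R273H, and 0.773 and 0.847 in GFP. R175H was the group whose 2 ratios lay above those of all other libraries. The RefSeq span of the antisense gene HSPB8-AS1 overlaps that of HSPB8. Whether their exons overlap was not checked, and reads of any shared stretch cannot be told apart where strand was not used.

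HSPB6 (HSP20), best known from smooth and cardiac muscle, did not follow CRYAB. HSPB6 had 59.3 and 49.7 CPM in R175H, 60.8 and 57.7 CPM in R248Q, 54.2 and 50.6 CPM in R273H, and 54.6 and 49.9 CPM in GFP. R175H and R273H overlapped GFP, and R248Q lay above it. The log2 fold changes were 0.05 ± 0.09 in R175H (interval -0.15 to 0.25), 0.18 ± 0.09 in R248Q (interval -0.01 to 0.37) and 0.00 ± 0.09 in R273H (interval -0.19 to 0.19), with adjusted p-values of 0.78, 0.24 and 0.99 in that order. With the length correction the R248Q value was 0.29 (adjusted p 0.023), which was a call.

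HSPB11, which RefSeq names IFT25, is a subunit of the intraflagellar transport machinery of cilia and carries a fold like that of small heat shock proteins. HSPB11 had 37.2 and 37.6 CPM in R175H, 39.7 and 37.6 CPM in R248Q, 36.8 and 38.7 CPM in R273H, and 45.6 and 37.0 CPM in GFP. GFP replicate 1 was the high library, 0.30 above GFP replicate 2 on the log2 scale, and all 3 mutants overlapped the GFP libraries. Log2 fold changes were -0.15 ± 0.10 in R175H, -0.10 ± 0.10 in R248Q and -0.13 ± 0.10 in R273H, with adjusted p-values of 0.38, 0.58 and 0.60 in that order.

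Of the 5 genes other than CRYAB, 1 (BAG3) was called lower in R175H, where 4.59% of all tested genes were called lower. In R248Q and R273H 0 of the 5 were called, against 6.32% and 1.01% of all genes in either direction (4.88% and 0.757% higher, 1.44% and 0.250% lower). Before adjustment 2 of 5 were below 0.05 in R175H, 3 in R248Q and 1 in R273H, all lower than GFP. Over all 13213 genes, 3467, 2967 and 1682 were below 0.05 before adjustment in those mutants, in either direction. DESeq2 and limma-voom gave the same counts of called members. Without GFP replicate 2 there were 3 of 5 called lower for R175H and 2 for each other mutant, beside 1546 (R175H), 1608 (R248Q) and 931 (R273H) of all 13534 genes. Without R175H replicate 2 there were 0 in R175H. For the mean of the mutants 1 of the 5 was called, against 8.26% of all genes (5.21% higher and 3.04% lower), with 3 called lower without GFP replicate 2, where 1599 of 13534 genes were, and 0 without GFP replicate 1. All-gene median log2 fold changes were 0.01 in R175H, -0.01 in R248Q and -0.00 in R273H.

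**Figure D2:**
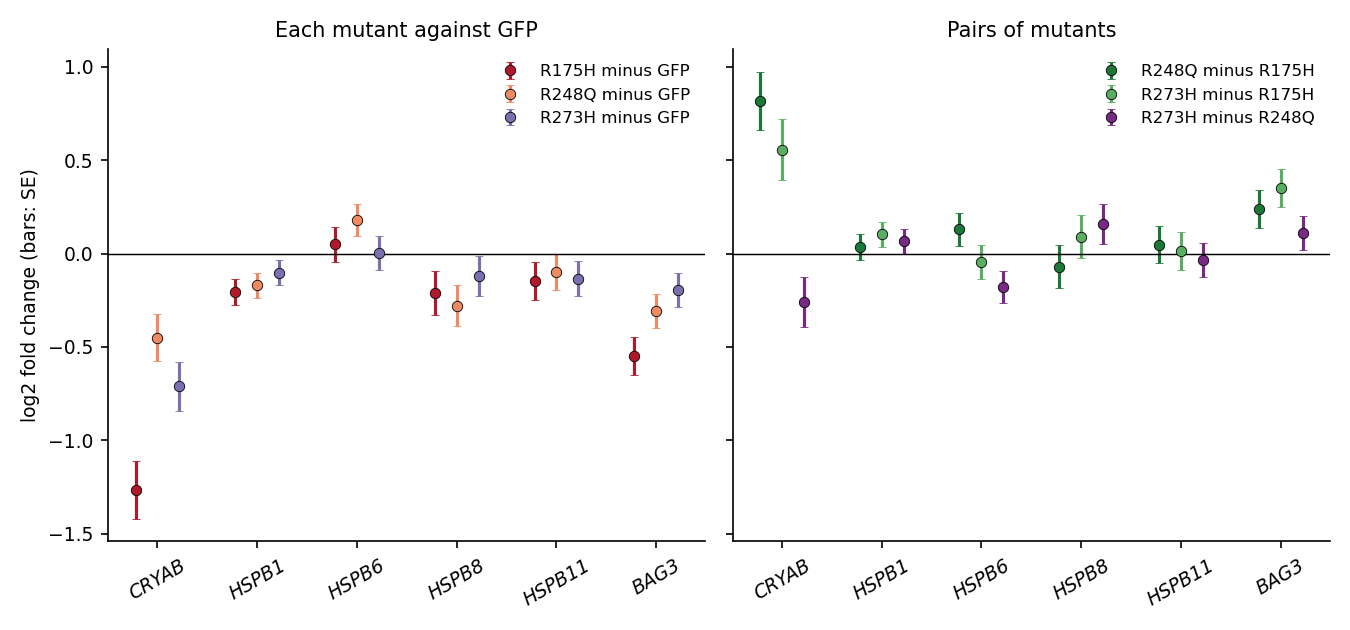
Log2 fold change of each of the 6 genes in each mutant minus GFP (left) and between mutants (right); points are fitted values and bars their SE. CRYAB is the farthest from 0 in every mutant (-1.27 in R175H) and is shown against GFP as a description, BAG3 follows at -0.55 in R175H, and HSPB6 lies at 0.00 to 0.18.

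Levels of different genes were set side by side per kilobase of transcript, using GENCODE 29 lengths. HSPB1 had 969 to 1238 CPM per kb across the libraries, HSPB11 40.2 to 49.9 and HSPB6 34.1 to 41.8. CRYAB had 5.67 and 6.21 CPM per kb in R175H, 9.98 and 11.1 in R248Q, 8.26 and 9.31 in R273H, and 14.0 and 14.9 in GFP. BAG3 ranged over 8.16 to 12.7 and HSPB8 over 8.04 to 10.4 CPM per kb. In GFP libraries CRYAB thus stood above BAG3 and HSPB8, and in R175H libraries below both.

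Within the summed level per kb of CRYAB, HSPB1, HSPB6 and HSPB8, HSPB1 made up 94.4% to 95.4% in every library. CRYAB made up 0.553% and 0.594% of that sum in R175H, 0.942% and 1.03% in R248Q, 0.750% and 0.833% in R273H, and 1.08% and 1.36% in GFP. The shares did not overlap between groups, and they kept the order of the CRYAB levels.

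**Figure D3:**
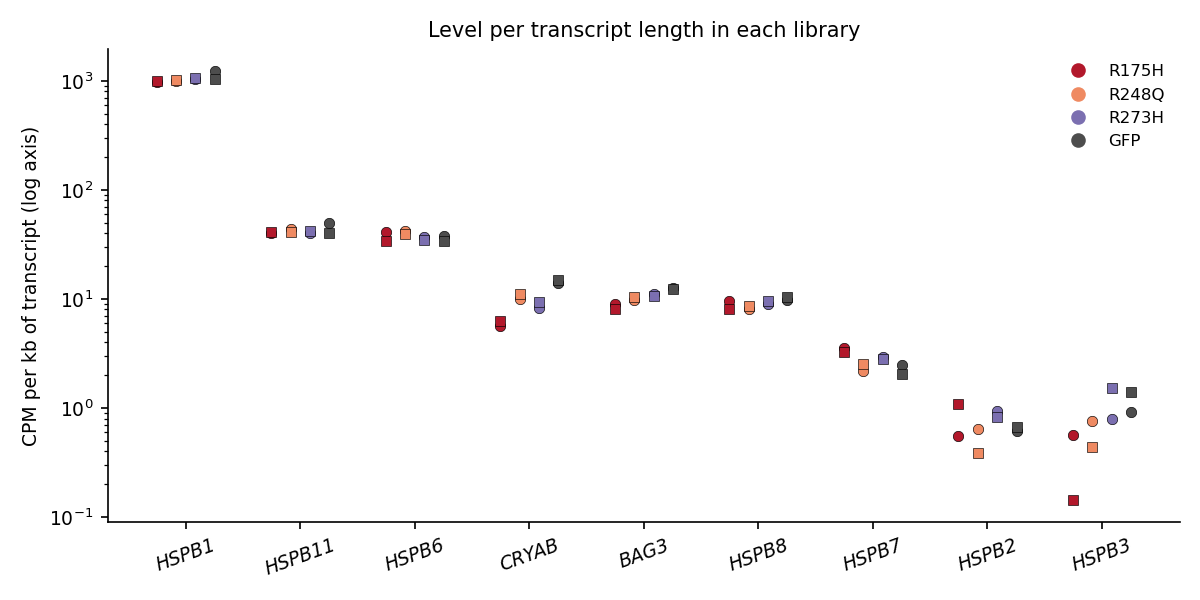
CPM per kb of transcript (log axis) of the small heat shock protein genes and BAG3 in each library, coloured by group with mutants left of GFP. HSPB1 lies at 969 to 1238, far above the rest, and CRYAB in R175H (5.67 and 6.21) lies below HSPB8 and BAG3.

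Of the 6 other genes of the family, 3 had enough counts to be tested. HSPB7, known from heart and skeletal muscle, was higher in R175H: it had 10.2 and 9.42 CPM in R175H, 6.31 and 7.28 CPM in R248Q, 8.45 and 8.11 CPM in R273H, and 7.09 and 5.88 CPM in GFP. Its log2 fold change was 0.58 ± 0.17 in R175H (adjusted p 0.040), 0.06 ± 0.17 in R248Q (0.87) and 0.35 ± 0.17 in R273H (0.40). The R175H call was lost in 10 of 18 alternatives, DESeq2 (adjusted p 0.18) among them, and in 7 of the 8 that leave out a library (adjusted p 0.061 to 0.20).

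HSPB2 had 5 to 14 counts and HSPB3 had 1 to 14 counts per library, and neither was called in any mutant. HSPB3 had 3 and 1 counts in R175H, 7 and 4 in R248Q, 7 and 14 in R273H, and 7 and 10 in GFP, too few for its log2 fold change of -1.78 ± 0.76 in R175H to be called (adjusted p 0.14). CRYAA, the lens partner of CRYAB, and the testis genes HSPB9 and ODF1 were at or under the floor: CRYAA and HSPB9 had 0 to 3 counts per library and ODF1 had 0 in all 8. CRYAB and HSPB2 overlap in the RefSeq annotation and the sources used here do not say whether counting used strand, so reads of the shared stretch are uncertain for both.

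Of the 5 other BAG genes, co-chaperones that share the BAG domain, 0 were called in each mutant by edgeR, DESeq2 or limma-voom. With 11.0%, 6.32% and 1.01% of all genes called in R175H, R248Q and R273H, a count of 0 of 5 lies near the background, and before adjustment 1 (BAG1, lower) was below 0.05 in R175H and 0 in the others. In R175H, BAG1 had a log2 fold change of -0.19, BAG2 of -0.13, BAG4 of 0.21, BAG5 of -0.02 and BAG6 of 0.02. The list medians were -0.02 in R175H, 0.02 in R248Q and -0.03 in R273H. The length correction called 2 of the 5 lower in R175H, where it called 1171 of 13213 genes lower, against 607 without it. With each library left out in turn, BAG1 was at -0.27 to -0.10 in R175H and -0.20 to -0.03 in R248Q.

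Chaperones that HSF1 is known to induce were lower in R175H. Of 22 listed genes 16 fell and 0 rose in R175H, with a median log2 fold change of -0.40, where 4.59% of all genes fell. In R248Q 6 fell and 0 rose (median -0.16; 1.44% of all genes fell), and in R273H 0 were called (median -0.14; 0.250% of all genes fell). Before adjustment 10 of 22 were below 0.05 and lower in R273H, beside 1682 of all 13213 genes in either direction. DESeq2 and limma-voom also called 0 of the 22 there. HSPA8, the constitutive HSP70 protein whose promoter is shown above, had 1724 and 1739 CPM in R175H, 2355 and 2302 CPM in R248Q, 2328 and 2368 CPM in R273H, and 2688 and 2603 CPM in GFP. All mutant libraries lay below GFP, and those of R175H lay lowest. HSPA8 had log2 fold changes of -0.61 ± 0.05 in R175H (adjusted p 6.4e-07), -0.18 ± 0.05 in R248Q (0.026) and -0.17 ± 0.05 in R273H (0.11).

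DNAJA1, an HSP40 partner of HSP70, had 193 and 204 CPM in R175H, 273.3 and 273.5 CPM in R248Q, 269 and 265 CPM in R273H, and 324 and 303 CPM in GFP. Its log2 fold changes were -0.66 (adjusted p 2.4e-06), -0.20 (0.046) and -0.23 (0.062) for R175H, R248Q and R273H. HSPH1, an HSP110 nucleotide exchange factor, fell by 0.63 on the log2 scale in R175H, and HSP90AA1, the inducible HSP90, fell by 0.42. The R248Q calls of HSPA8 and DNAJA1 were lost without either R248Q or R273H library, and that of DNAJA1 also without either R175H library or GFP replicate 1. HSPB1 and BAG3, HSF1 targets in their own right, were kept out of this list.

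Between mutants, 9 of the 22 chaperones were higher in R248Q than in R175H and 10 were higher in R273H than in R175H, with 0 lower in either. The medians were 0.19 and 0.22, and 3.22% and 1.41% of all genes were called higher in those pairs. Between R273H and R248Q 0 of 22 were called. With each library left out in turn, the median in R175H minus GFP stayed between -0.45 and -0.32. The counts of called chaperones, in R175H and between mutants, fell or rose with the libraries that entered. Those fits also differed in how many of all genes they called, so a changed count is not read as a changed effect. The R248Q count of 6 rested on which libraries entered: it was 0 without either R248Q library, 1 without either R273H library, 2 without either R175H library, 7 without GFP replicate 1 and 17 without GFP replicate 2. In R273H the count was 3 without GFP replicate 1, where 62 of 13551 genes fell, and 14 without GFP replicate 2, where 931 of 13534 genes fell. The R248Q count of 17 likewise stood beside 1608 of 13534 genes.

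Genes that work with BAG3 in chaperone-assisted autophagy moved in both directions. Of 12 listed, 2 rose and 5 fell in R175H (median -0.15), where 6.39% of all genes rose and 4.59% fell. In R248Q 3 rose and 2 fell (median -0.09), where 4.88% of all genes rose and 1.44% fell. In R273H 1 rose and 0 fell (median -0.08), where 0.757% of all genes rose and 0.250% fell. Of the genes that fell in R175H, 3 encode HSP70 or HSP40 proteins and belong to the HSF1 list as well: HSPA8 is given above, DNAJB1 had a log2 fold change of -0.49 (adjusted p 0.00011), and HSPA1B of -0.79 (0.00014), a value that is uncertain because HSPA1A is a near-identical copy.

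SQSTM1 (p62), an autophagy receptor for ubiquitinated cargo, fell in R175H by a log2 fold change of -0.20 (adjusted p 0.024). The next 4 genes were chosen for naming after their values were seen: the HSP40 gene DNAJB6 fell in R175H (-0.43, adjusted p 0.0021) and SYNPO2 (myopodin) rose there (0.62, 0.028), and in R248Q the filamins FLNC (0.42, 0.0061) and FLNA (0.31, 0.041) rose. The SQSTM1 call was lost without each R175H, R248Q and R273H library (adjusted p 0.054 to 0.19), that of DNAJB6 without R175H replicate 1 (-0.34, 0.057), and that of SYNPO2 without either R175H library or GFP replicate 1 (0.31 in the last case, 0.17). With the length correction FLNC stood at 0.17 and FLNA at 0.08 in R248Q (adjusted p 0.072 and 0.24), and neither was called without either R248Q library. The FLNA call was also lost without each R175H and R273H library and by DESeq2 (0.27). The number that rose was 1 without GFP replicate 1 or without either R175H library and 4 without GFP replicate 2 in R175H, and 1 without either R248Q library in R248Q. The number that fell in R248Q was 0 without either R248Q or R273H library, 1 without either R175H library and 4 without GFP replicate 2. In R273H 2 fell without GFP replicate 2 and 1 fell without GFP replicate 1, beside 931 of 13534 and 62 of 13551 genes.

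**Figure D4:**
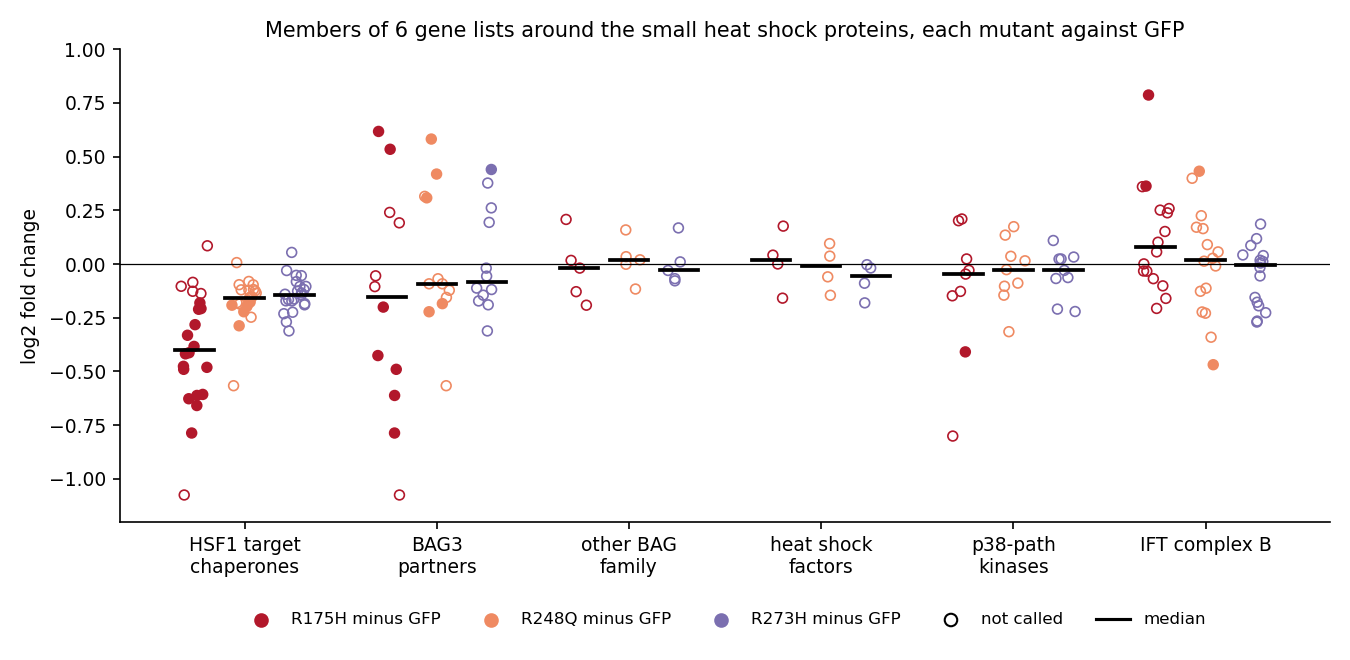
Log2 fold change of every tested member of 6 gene lists in R175H, R248Q and R273H minus GFP; filled points were called at an adjusted p below 0.05 and black bars are list medians. The HSF1 target chaperones in R175H (median -0.40) lie lowest, while the other BAG genes and the heat shock factors lie around 0.

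HSF1, HSF2, HSF4 and HSBP1, listed together as heat shock factors, were not called in any mutant by edgeR, DESeq2 or limma-voom (0 of 4 each). HSF1 had 97.7 and 101 CPM in R175H, 90.4 and 94.8 CPM in R248Q, 95.8 and 94.9 CPM in R273H, and 97.4 and 95.6 CPM in GFP, with log2 fold changes of 0.04, -0.06 and -0.02 in the mutants in that order. HSBP1, a negative regulator of HSF1, had log2 fold changes of -0.16, -0.15 and -0.09, HSF2 of 0.00, 0.10 and -0.00, and HSF4 of 0.18, 0.04 and -0.18. Before adjustment 1 of 4 was below 0.05 in R175H and in R248Q, and 0 in R273H, beside 3467, 2967 and 1682 of 13213 genes. In both mutants that gene was HSBP1, the negative regulator, and not a heat shock factor. With each library left out in turn, the log2 fold change of HSBP1 was -0.25 to -0.06 in R175H and -0.24 to -0.04 in R248Q. In R273H it was -0.18 to 0.01.

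Among 9 kinases of the p38 pathway, which phosphorylates HSPB1 and CRYAB, 1 fell in R175H and 0 rose (4.59% and 6.39% of all genes). In R248Q and R273H 0 were called by edgeR, DESeq2 or limma-voom. Before adjustment 0 were below 0.05 in R248Q and 1, lower, in R273H, beside 2967 and 1682 of all 13213 genes in either direction. MAP2K3, an activator of p38, had 40.1 and 47.7 CPM in R175H, 54.0 and 55.3 CPM in R248Q, 51.6 and 49.9 CPM in R273H, and 60.4 and 56.9 CPM in GFP. Its log2 fold change was -0.41 ± 0.09 in R175H (adjusted p 0.0073), a call lost without R175H replicate 1 (-0.30, 0.12). MAPK14 (p38 alpha) stood at 0.21 (adjusted p 0.063), MAPKAPK2, the main HSPB1 kinase, at -0.13 (0.31), and MAPKAPK5 at -0.15 (0.36) in R175H. Without GFP replicate 2, 1 of the 9 rose in R175H and 1 fell in R273H, where 1846 of 13534 genes rose and 931 fell.

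Intermediate filaments are a classic client of CRYAB, and of 10 listed filament genes 6 were tested. VIM (vimentin) rose in R175H, where it had 5733 and 5615 CPM, against 4932 and 4951 CPM in GFP (log2 fold change 0.20, adjusted p 0.0089), a call lost without R175H replicate 1 (0.18, 0.096). In R248Q VIM had 4713 and 4612 CPM and in R273H 5063 and 5029 CPM, and neither was called. SYNM (synemin) rose in R248Q by 0.46 (adjusted p 0.0060), a call lost without R248Q replicate 2 (0.42, 0.10). KRT8 rose there by 1.32 (0.036) from few reads, with 33 and 39 counts in R248Q against 13 and 10 in GFP, and its call was lost without either R175H or R248Q library or GFP replicate 1. LMNA (lamin A/C) stood at -0.00 in R175H and -0.13 in R248Q (adjusted p 0.97 and 0.13). Of the 6, 1 rose in R175H and 0 fell (6.39% and 4.59% of all genes). In R248Q 2 rose and 0 fell (4.88% and 1.44%). In R273H 0 were called by edgeR, DESeq2 or limma-voom. Before adjustment 2 were below 0.05 and higher in R273H, beside 1682 of all 13213 genes in either direction. Without GFP replicate 2, 2 rose in R175H and 2 in R273H, where 1846 and 1327 of 13534 genes rose, and 1 fell in R248Q, where 1608 fell.

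The intraflagellar transport partners of HSPB11 showed few calls. Of 16 complex B genes, 2 rose and 0 fell in R175H (6.39% and 4.59% of all genes). In R248Q 1 rose and 1 fell (4.88% and 1.44% of all genes). In R273H 0 were called by edgeR, DESeq2 or limma-voom. Before adjustment 2 were below 0.05 and lower in R273H, beside 1682 of all 13213 genes in either direction. IFT172 had log2 fold changes of 0.36 in R175H and 0.43 in R248Q (adjusted p 0.037 and 0.015), TTC30A of 0.79 in R175H (0.019), and IFT57 of -0.47 in R248Q (0.0062). IFT20 stood at -0.21 in R175H and -0.34 in R248Q (0.34 and 0.12). Both R175H calls were lost without either R175H library, that of IFT172 also without GFP replicate 1 or either R273H library, and that of IFT57 was lost without R248Q replicate 1 (-0.37, 0.15). The IFT172 call in R248Q was lost without R248Q replicate 2 (0.31, 0.23) and without GFP replicate 1 (0.36, 0.053). Without GFP replicate 2, 2 fell in R248Q and 1 in R273H, where 1608 and 931 of 13534 genes fell.

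Markers of smooth muscle, a tissue rich in CRYAB and HSPB6, were lower in sum in every mutant library than in GFP, but did not follow the CRYAB order among the mutants. The summed level of 7 such markers was 63.3 to 67.0 CPM in R175H, 59.6 to 62.1 CPM in R248Q, 63.1 to 65.4 CPM in R273H and 96.8 to 104 CPM in GFP, and 6 of the 7 averaged at least 1 CPM over all libraries. The sum was lowest in R248Q, the mutant in which CRYAB was highest, and R175H and R273H overlapped. ACTA2, TAGLN and MYL9 had lower CPM in all 6 mutant libraries than in both GFP libraries, while MYH11, LMOD1, CNN1 and DES overlapped GFP in at least 1 mutant. None of the 7 was at 0 in all libraries, and the part of these transcripts in the CRYAB result was not tested. MYH11, the defining smooth muscle myosin, had 5.90 and 5.94 CPM in R175H, 6.90 and 7.97 CPM in R248Q, 6.40 and 6.92 CPM in R273H, and 6.06 and 6.65 CPM in GFP, so it did not separate the mutants from GFP. The summed striated muscle markers were 12.7 to 16.2 CPM in R175H, 15.5 to 17.6 CPM in R248Q, 13.6 to 13.7 CPM in R273H and 12.6 to 14.4 CPM in GFP. In bulk libraries, fewer cells with a transcript and less of it per cell cannot be told apart.

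The 5 genes whose log2 CPM was most like that of CRYAB over the 8 libraries were SQSTM1 (Pearson r 0.989), SCARF2 (0.983), CACNB3 (0.981), MCPH1 (0.979) and ARF4 (0.973), among 10849 genes with a mean of at least 5 CPM. These correlations describe 8 libraries that share 4 groups and carry no p. Over the 4 group means, 1 of the 5 (SQSTM1) was again among the 5 most alike. SQSTM1 had 240 and 247 CPM in R175H, 266 and 268 CPM in R248Q, 257 and 261 CPM in R273H, and 282 and 278 CPM in GFP, which is the order of the CRYAB groups over a much smaller range. In R175H minus GFP the log2 fold changes were -0.20 for SQSTM1, -0.31 for SCARF2, -0.47 for CACNB3, -0.29 for MCPH1 and -0.26 for ARF4, against -1.27 for CRYAB. Among the 6 genes described here, BAG3 was the most like CRYAB (r 0.867), followed by HSPB1 (0.603), HSPB11 (0.467), HSPB8 (0.446) and HSPB6 (-0.14).

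**Figure D5:**
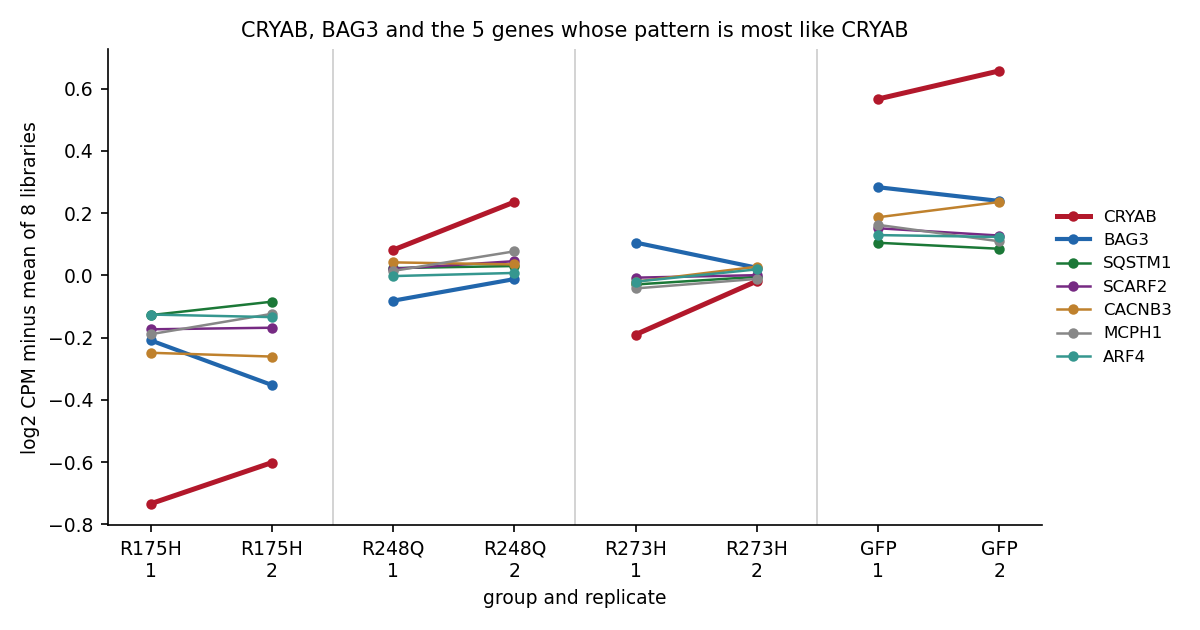
Log2 CPM minus its mean over the 8 libraries for CRYAB, BAG3 and the 5 genes most like CRYAB, with mutant libraries left of GFP. All 7 genes are lowest in R175H and highest in GFP, and CRYAB covers by far the widest range.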

How the data were processed

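RNA from 8 HGC27 libraries was sequenced after a Kapa mRNA preparation, per the labels' protocols, and processed with bcl2fastq and STAR 2.5 on hg19, per the submitters' processing notes. The authors deposited raw, whole-number read counts for each gene. How reads were counted, with which annotation and strand setting, is not given in the sources used here. The analysis used edgeR 4.0.16 in R 4.3.3: filterByExpr (minimum count 10, minimum total 15), TMM scaling (factors 0.989 to 1.01), and a quasi-likelihood fit with 1 mean for each of the 4 groups over all 8 libraries (residual degrees of freedom: 4). Of 25435 genes, 13213 were tested in 7 comparisons, and calls were made at an adjusted p below 0.05 (Benjamini-Hochberg, over all genes tested). The SE of a log2 fold change is its size over the square root of its F statistic. The procedure was tested on simulated data.

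The 6 genes and all gene lists were chosen with earlier results of these data known. Named were the 6 genes, all other small heat shock protein and BAG genes, the 4 genes of each other list with the lowest p against GFP, and the 5 genes most correlated with CRYAB (log2 CPM, prior count 2, mean CPM of at least 5). Alternatives were DESeq2 1.42.0, its size factors, library size alone, limma-voom 3.58.1, other filters, only the groups compared, a replicate block, each library left out, and a loess correction for transcript length (span 0.3). GENCODE 29 gave a length, matched by symbol, for 97.3% of the tested genes. The length correction without GFP replicate 1 was chosen after seeing the data. Results for some genes that the rule or the design also took are not reported here.

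Total counts of 6800463 to 11788035 set the floor of 3 counts at 0.256 to 0.443 CPM, which covers counting error only. Correlations of same-numbered replicate deviations between groups were -0.09 to 0.05, so replicates were not paired.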

Additional observations from a re-analysis of the deposited data

How the results depend on the processing

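The direction of CRYAB was the same in each of the 7 comparisons under all alternatives run. The R248Q minus GFP log2 fold change of CRYAB was -0.32 with the length correction. The R273H minus R175H difference was called at 0.56 with no filter beyond 1 count, with only the groups compared, with the length correction, and with that correction without GFP replicate 1. Leaving out each library gave CRYAB differences of 0.75 to 0.90 for R248Q minus R175H and 0.47 to 0.64 for R273H minus R175H.

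Of the 5 other genes, 2 were called lower in R175H with library size alone, no filter or the length correction. Those fits called 725 of 13213, 806 of 18498 and 1171 of 13213 genes lower there, against 607 of 13213 in the main fit. In R248Q 1 was called higher with the length correction, beside 406 of 13213 genes, and 2 lower with no filter, beside 448 of 18498 genes. For the mean of mutants 2 were lower with no filter, beside 626 of 18498 genes. Of all 6, 4 were called higher in R248Q than R175H with the length correction without GFP replicate 1. For R273H minus R175H 2 were higher with no filter, only the groups compared or the length correction. Those fits called 320 of 18498, 623 of 12932 and 589 of 13213 genes higher, against 186 of 13213 in the main fit. The HSPB6 log2 difference of R273H minus R248Q was -0.23 to -0.13 over the 18 alternatives. Leaving out each library called 0 to 3 of 5 lower in R175H, 0 to 2 in R248Q, 0 to 2 in R273H and 0 to 3 for the mean, and 0 to 1 and 0 to 3 of 6 higher for R248Q and R273H over R175H. The counts of 3 of 5 and of 2 in R248Q and R273H came without GFP replicate 2, in fits that called 931 to 1608 of 13534 genes lower. A group left with 1 library is assumed to vary like the others, and the GFP pair differed more than they did. The cause of these shifts was not tested.

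Replicate numbers did not pair the samples. The replicate block changed no call of the 6 genes, and CRYAB in R248Q minus R175H stayed called. With it 1 HSF1 target chaperone fell in R248Q, against 6 without it, and the R175H call of HSPB7 was lost (adjusted p 0.061). It did move the counts over all genes, which became 623 higher and 421 lower (R175H, without the block 844 and 607), 442 and 96 (R248Q, without it 645 and 190), and 38 and 20 (R273H, without it 100 and 33). DESeq2 gave 490 higher and 337 lower genes for R175H, 416 and 66 for R248Q, then 74 and 20 for R273H. The length correction gave 1015 and 1171, then 406 and 451, then 196 and 129. CRYAB had the fewest counts in R175H, 43 and 62, which limits the precision there.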
